A study of Mus musculus with 8 samples.

Results

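The 10 genes described here encode the 2 protein complexes that start autophagy, the process by which a cell encloses its own components in a membrane and delivers them to the lysosome. Their probes were found by gene symbol in the array annotation, a rule that uses no measured value. Ulk1, Ulk2, Atg13, Atg101 and Rb1cc1 belong to the ULK kinase complex, and Becn1, Pik3c3, Pik3r4, Atg14 and Ambra1 to the class III phosphatidylinositol 3-kinase complex and its regulators. Of these 10 genes, 9 were annotated to at least 1 probe, with 19 probes in all, and Atg14 was not analysed here because no probe carried its name. The array annotation names 19057 genes, of which 7178 could be tested, and 6 of the 10 initiation genes were among those.

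The samples were erythroid precursors of the bone marrow, sorted by flow cytometry as positive for both CD71, the transferrin receptor, and Ter119, a surface antigen of red cells. KAP1, the transcriptional corepressor encoded by Trim28, was knocked out (KO) in 4 of them, which carry the codes A4, A8, A11 and A13. The other 4 were wild type (WT) for it, under the codes C4, C6, C8 and C9. All 8 came from mice 8 to 12 weeks old, of a mixed strain, and the labels give Kap-flox/stopfloxYFP for the WT samples as well as for the KO samples. What drives the recombinase, and whether the samples are of different animals, is not in the labels, and the p-values below therefore cover the spread among these 8 samples alone. RNA was hybridised to Illumina bead arrays, which report the brightness of each probe as an intensity.

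Autophagy is started by the ULK complex, in which the kinase ULK1 or its relative ULK2 is bound to the adaptor ATG13, its partner ATG101 and the scaffold FIP200, the product of Rb1cc1. This kinase phosphorylates the class III PI3-kinase complex, where VPS34 (Pik3c3) makes the lipid PI3P on the forming membrane together with VPS15 (Pik3r4), Beclin 1 (Becn1) and ATG14. Red cell precursors remove their mitochondria and other organelles as they mature, and mice without Ulk1 are known to retain mitochondria in their reticulocytes.

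The RefSeq sequences of the region before the transcription start are shown for Ulk1 and Ulk2, because these paralogs can occupy the same place in the complex, and the results turn on Ulk1, while Ulk2 was at or near the lower limit of the values in every sample. Each line gives the 250 bases before the annotated start on mouse assembly GRCm38.p6, read 5′ to 3′ on the strand of the gene. Capitals mark each GC box, searched as CCGCCC on either strand.

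Ulk1, chr5:110810082-110810331, minus strand: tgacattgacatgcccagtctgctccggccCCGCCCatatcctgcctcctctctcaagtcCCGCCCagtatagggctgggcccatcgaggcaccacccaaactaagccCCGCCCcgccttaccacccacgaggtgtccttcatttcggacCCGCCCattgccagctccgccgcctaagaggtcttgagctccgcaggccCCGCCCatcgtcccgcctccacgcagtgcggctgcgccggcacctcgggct

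Ulk2, chr11:61855093-61855342, minus strand: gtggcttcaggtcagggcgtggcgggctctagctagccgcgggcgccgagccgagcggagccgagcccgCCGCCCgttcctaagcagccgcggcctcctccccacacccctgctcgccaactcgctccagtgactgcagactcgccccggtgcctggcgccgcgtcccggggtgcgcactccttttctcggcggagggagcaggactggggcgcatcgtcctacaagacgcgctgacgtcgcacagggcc

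The Ulk1 window held 5 GC boxes and the Ulk2 window 1. At least 1 GC box was found in 32.7% of 32851 windows of the same length, and 5 or more in 1.93%. The GC content was 67.2% for Ulk1 and 72.8% for Ulk2, against a median of 52.4% over all windows. The Ulk2 window also held 1 match to CACACCC, present in 6.93% of all windows and in lower case here, whereas the Ulk1 window held none. Neither window held the GATA motif AGATAA (in 9.99% of all windows), its variant form TGATAA (7.94%), the FOXO-type motif TGTTTAC (3.17%) or the TFEB-type E-box CACGTG (6.02%) on either strand, and no matches overlapped. Of the 10 genes, 7 had such a window. The Ulk1 count was followed by 2 GC boxes for Atg14, and the windows of Atg13, Atg101, Pik3r4 and Ambra1 held none. A match of letters is a description of the sequence only.

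The deposited intensities were normalized so that all arrays share nearly one distribution, and they do not fall below a floor of 20. On each array 12143 to 12199 of the 45281 probes exceeded it, and the rest (73.1% to 73.2%) were listed at 20. A level at the floor is an upper limit. Trim28 was 3.28-fold lower in KO (-1.71 on the log2 scale, with an SE of 0.27 and a limma adjusted p of 0.0085), with every KO sample (130.7 to 207.4) below every WT sample (395.2 to 739.8), and where its probe lies relative to the deleted part is not known here. Markers of red cell precursors were above the floor in both groups. Tfrc, Klf1, Gata1, Alas2, Hba-a1, Slc4a1 and Epor exceeded it in every sample, and Epb42 was at the floor. Of the 9 tested markers 1 fell, Alas2, the first enzyme of haem synthesis in red cells (2.07-fold, adjusted p = 0.0132 in limma). Slc4a1 and Sptb were lower in KO without overlap (log2 fold changes -0.63 and -0.82, adjusted p = 0.0712 and 0.168), Klf1 was higher without overlap (0.32, adjusted p = 0.255), and the groups of the other 5 overlapped. KO sample A8 stood apart from the rest of its group, with a mean correlation of 0.894 to the other KO arrays, whereas every other array reached between 0.934 and 0.950 within its own group. In limma, 5.64% of the 7178 tested genes passed the threshold of an adjusted p under 0.05, with 2.4% higher and 3.25% lower in KO. The median log2 fold change over those genes was 0.11.

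Among the 6 tested initiation genes, 1 fell, none rose and 5 did not pass the test. The gene that fell was Ulk1, at 1 of its 2 probes. This 1 of 6 genes, and 1 of 9 probes, stands against a background of 3.25% of all tested genes and 3.11% of all tested probes lower in KO, and 5.56% of probes passed in either direction (2.46% higher). Becn1 lay on the same side by a similar amount and missed the threshold. Atg101, Ambra1 and Pik3c3 had overlapping groups with log2 fold changes between -0.11 and 0.33, and Atg13 was above the floor in KO samples alone. The median log2 fold change of the 6 genes was -0.01, with 3 above and 3 below 0. At an unadjusted p under 0.05, 4 of the 9 tested probes were counted, which were both Ulk1 probes, 1 Becn1 probe and the Atg13 probe, against 10.4% of all tested probes lower and 14.6% higher at that level (9.92% and 15.3% of genes). Groups did not overlap at 3 of the 9 probes, 2 lower and 1 higher in KO, where 7.31% and 10.5% of all tested probes did so in those directions (7.38% and 11.3% of genes). The 1 higher was the Atg13 probe, which met the filter of 4 arrays above the floor through its KO samples alone. Its separation was thus fixed by the filter, and its place in these counts is no support for a rise.

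**Figure D1:**
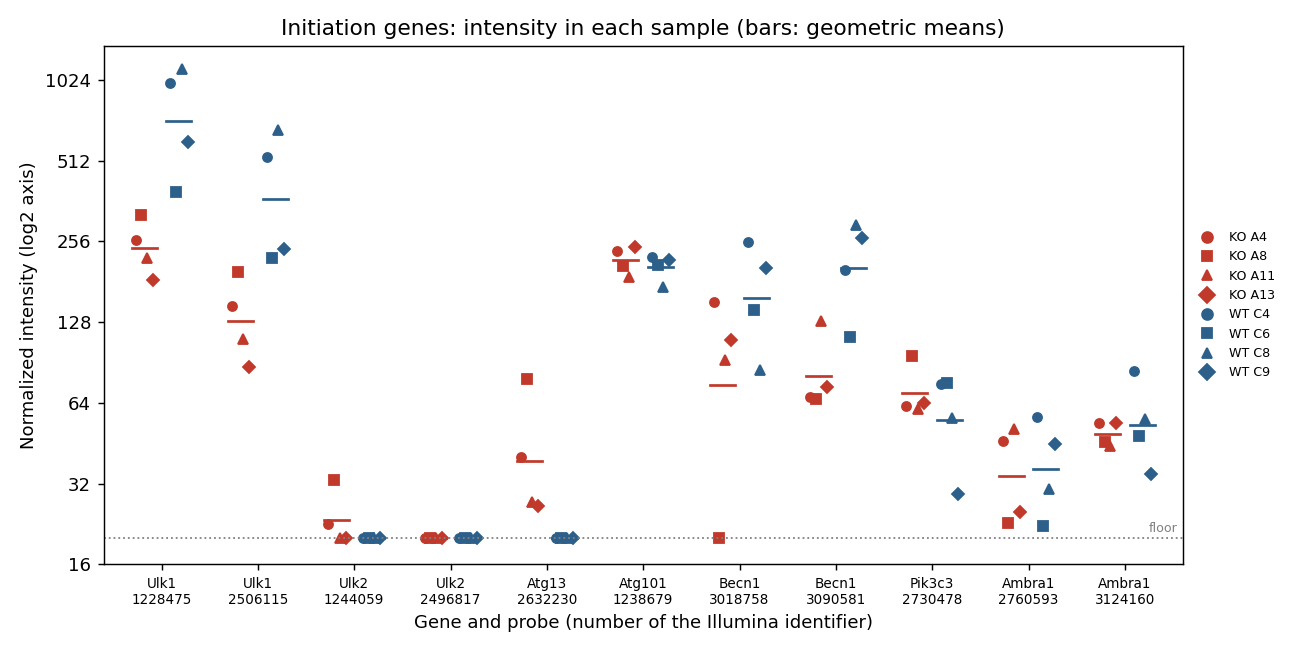
Normalized intensity (log2 axis) of each initiation gene probe that was above the floor on at least 1 array, with 1 point per sample, KO in red and WT in blue, and a bar at the geometric mean of 4 samples. At both Ulk1 probes all 4 KO samples lie below all 4 WT samples, the groups overlap at both Becn1 probes, and the Atg13 probe leaves the floor of 20 in the KO samples alone.

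Ulk1, the kinase that starts the process, was measured by 2 probes. At the brighter one (ILMN_1228475) the KO samples A4, A8, A11 and A13 had intensities of 259.9, 320, 222.1 and 183.8, and the WT samples C4, C6, C8 and C9 had 1000, 392.4, 1119.2 and 599.7. The highest KO sample was A8 and the lowest WT sample C6, and the groups did not overlap. KO samples averaged 7.92 ± 0.34 and WT samples 9.48 ± 0.70 in log2 intensity (SD, n = 4 each), a 2.97-fold fall (log2 fold change -1.57, SE 0.35, 95% interval -2.35 to -0.79, adjusted p = 0.0362 in limma). The dimmer probe (ILMN_2506115) read 146.6, 196.4, 110.7 and 87.01 in KO and 526.3, 222.6, 664 and 238.8 in WT, in the same sample order. Its groups did not overlap either, and its difference was of the same size (log2 fold change -1.52, SE 0.41) but did not pass (adjusted p = 0.0642 in limma). The 4 samples of each group ranked alike at both probes, A8 above A4, A11 and A13, and C8 above C4, C9 and C6. The authors' deposited table lists a fold of -2.97 with p = 0.0133 for the brighter probe and -2.86 with p = 0.0232 for the dimmer one, without adjustment for the number of probes.

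The call for Ulk1 lay close to the threshold. It held without A8 (log2 fold change -1.70, adjusted p = 0.038 in limma) and without C6 (-1.86, adjusted p = 0.0108), and was lost without A4, A11, A13, C4, C8 or C9, where the log2 fold change lay between -1.65 and -1.35 and the adjusted p between 0.0743 and 0.108.

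Genes of late red cell maturation were lower in KO as well. Their list, like the other lists, was chosen with earlier results of these data known, so its counts are no independent support. Of 15 genes known for late erythroid precursors, among them the mitochondrial receptor gene Bnip3l, 12 were tested, 8 fell and none rose, with 11 lower and 0 higher at an unadjusted p under 0.05 in limma, where 3.25% of all tested genes fell and 9.92% were lower without adjustment. The 4 of smallest p were Hbq1a (13.3-fold lower, adjusted p = 0.000131 in limma), Mkrn1 (7.34-fold, 0.000682), Bnip3l (4.13-fold, 0.00131) and Ube2o (3.71-fold, 0.0021). The summed intensity of the 12 tested genes was 16048 to 23855 in the KO samples and 54794 to 84777 in the WT samples. Their mean log2 intensity ran from 7.64 to 9.31 and from 10.57 to 11.40. C6 was the lowest WT sample for this list, as for Ulk1, whereas A8 was the lowest KO sample for the list and the highest for Ulk1. The A8 value of the list includes floor readings for Ube2l6, Ypel4, Bcl2l1 and Bpgm, where the other KO samples were above the floor. A8 was also the lowest KO sample for Xpo7, Trim10, Ube2o and Fbxo7, but not for Bnip3l, Mkrn1, Slc25a39 or Hbq1a. Of 15 B cell genes, 11 were tested and 2 fell (again beside 3.25% of all genes), with sums of 2131 to 4738 in KO and 5940 to 10336 in WT, and Pax5 at the floor. Genes of the megakaryocyte line (4 of 8 tested) had sums of 509.1 to 783.6 in KO and 253.9 to 381.5 in WT, with Ppbp and Gp1bb at the floor. Of these 4 genes 1 rose, beside 2.4% of all tested genes. This was the platelet tubulin gene Tubb1, at 122.1 to 457.7 in KO and at the floor in all WT samples (adjusted p = 0.00152 in limma). Tubb1 met the filter through its KO samples alone, which fixed its separation. Among the other 3 the groups of Itga2b and Gp9 overlapped. For mast cells and basophils (6 of 7 tested) the sums were 451 to 843.2 in KO and 363 to 598.2 in WT, with Ms4a2 at the floor. Rises were found for Cpa3 (at least 6.18-fold, with 3 WT samples at the floor, adjusted p = 0.00339 in limma) and Fcer1a (3.16-fold, adjusted p = 0.0145). A fall was found for Prss34 (3.91-fold, adjusted p = 0.0316). The mean log2 intensity of the 6 genes was 5.95 to 6.91 in KO against 5.09 to 5.55 in WT. Over all tested genes 2.4% rose and 3.25% fell. Of 14 myeloid genes 13 were tested and none passed at its brightest probe, with sums of 48783 to 92967 in KO and 47915 to 83323 in WT. A dimmer Ms4a3 probe was higher in KO (log2 fold change 1.12, adjusted p = 0.0208 in limma), with 3 WT samples at the floor. The brighter Ms4a3 probe had overlapping groups and did not pass (1.86, adjusted p = 0.16). The red cell markers had sums of 66019 to 77551 in KO and 87074 to 112456 in WT. Macrophage genes (9 of 12 tested) had 980.5 to 2322 and 1037 to 1828, and none passed. Of 10 T and NK cell genes 6 were tested and 1 fell, Cd2 (3.26-fold, limma adjusted p = 0.0132). In sorted populations, fewer cells of a stage and less RNA per cell cannot be told apart, and the part of these markers in the Ulk1 difference was not tested.

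Ulk2, the paralog of Ulk1, was almost undetected. At 1 probe (ILMN_1244059) KO samples A4 and A8 had intensities of 22.65 and 32.98 and the other 6 samples were at the floor. At the other (ILMN_2496817) A8 alone was above it, at 20.1. Neither probe was above the floor on the 4 arrays required for a test.

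Atg13, the adaptor that joins ULK1 to FIP200, was read by a dim probe (ILMN_2632230). The KO samples had 40.05, 78.37, 27.25 and 26.45, and all 4 WT samples were at the floor. The KO level was at least 1.94-fold higher (log2 fold change 0.96, SE 0.33), which did not pass (adjusted p = 0.121 in limma). Since the probe entered the test through its KO samples alone, the lack of overlap followed from the filter. A8 was the highest of the KO samples, and without it the log2 fold change was 0.62 (adjusted p = 0.115).

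Atg101, which stabilises ATG13, varied little between samples. Its probe (ILMN_1238679) gave 235.7, 207.8, 188.4 and 243.4 in KO and 224, 208.6, 173.5 and 217.3 in WT. The groups overlapped, with a log2 fold change of 0.09 and a 95% interval from -0.31 to 0.49 (adjusted p = 0.786 in limma). A fall as large as the estimate for Ulk1 lay outside that interval. Rb1cc1, the scaffold of the complex, was at the floor at all 3 of its probes on all 8 arrays.

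Becn1, the core subunit through which the lipid kinase complex is switched on and off, was measured at 2 of its 3 probes. At the brighter (ILMN_3090581) the KO samples had 67.02, 65.92, 129.6 and 73.23 and the WT samples 199.7, 112.3, 294 and 262.4. KO sample A11 was above WT sample C6, so the groups overlapped, and the other 3 KO samples were below all of WT. KO samples averaged 6.33 ± 0.46 and WT samples 7.67 ± 0.62 in log2 intensity, a 2.53-fold difference (log2 fold change -1.34, SE 0.35, 95% interval -2.12 to -0.56) that missed the threshold (adjusted p = 0.0574 in limma). It passed without C6 (-1.63, adjusted p = 0.0162 in limma) and with no other sample left out. The other probe (ILMN_3018758) read 151.8, 20, 92.08 and 109.9 in KO and 253.7, 142.2, 84.79 and 202.7 in WT. A8 was at the floor there, and the log2 fold change was -1.08 (SE 0.61, limma adjusted p = 0.304) with A8 and -0.45 (adjusted p = 0.475) without it. The third probe (ILMN_2489136) was at the floor throughout.

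Pik3c3, the lipid kinase itself, had 1 probe (ILMN_2730478), with 62.48, 95.86, 60.6 and 63.86 in KO and 75.23, 75.97, 56.03 and 29.15 in WT. A8 was the highest and C9 the lowest of all samples. The groups overlapped, and the log2 fold change was 0.33 with a 95% interval from -0.41 to 1.06 (adjusted p = 0.559 in limma), or 0.17 (adjusted p = 0.771) without A8. Pik3r4, the regulatory subunit that anchors VPS34 to the membrane, was at the floor on every array at its single probe.

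Ambra1, a scaffold that binds Beclin 1 and promotes ULK1 stability, had 5 probes, of which 3 were at the floor throughout. The brighter of the others (ILMN_3124160) gave 53.92, 45.64, 44.04 and 53.96 in KO and 84.27, 48.11, 55.55 and 34.86 in WT, with the KO range inside the WT range. Its log2 fold change was -0.11 with a 95% interval from -0.71 to 0.50 (adjusted p = 0.827 in limma). The dimmer (ILMN_2760593) spanned 22.79 to 51.03 in the KO samples and 22.15 to 56.61 in the WT samples (log2 fold change -0.09, adjusted p = 0.900).

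**Figure D2:**
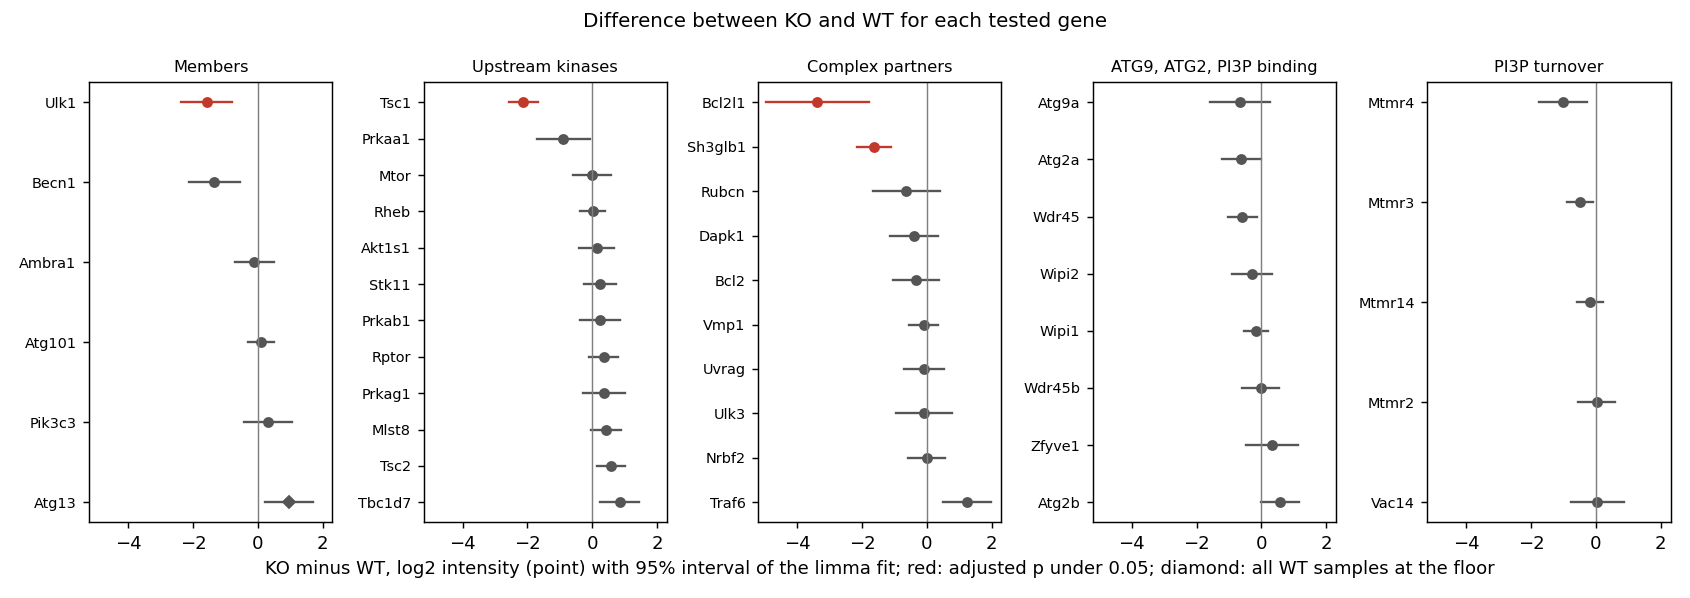
Difference between KO and WT in log2 intensity for each tested initiation gene and for the tested genes of 4 related lists, with the 95% interval of the limma fit; red points passed an adjusted p of 0.05, and the diamond marks Atg13, at the floor in all WT samples. Of the 6 initiation genes Ulk1 alone is red, Becn1 lies beside it at -1.34, and the red points of the other lists are Tsc1, Bcl2l1 and Sh3glb1.

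The difference of Ulk1 was then set against that of each other tested initiation gene within the same samples. For each sample the log2 intensity of the other gene was subtracted from that of Ulk1, and the KO and WT values were compared by an exact 2-sided permutation test over all 70 assignments of the samples, which cannot give a p below 0.0286, with adjustment over the 5 pairs. Ulk1 was set against the others because it was the gene that fell, so the p-values restate how its groups separate and are no independent support. Against Atg101 the values were 0.14, 0.62, 0.24 and -0.41 in KO and 2.16, 0.91, 2.69 and 1.46 in WT, so the groups did not overlap. The difference between KO and WT was -1.66 on the log2 scale (exact permutation p = 0.0286, adjusted p = 0.0357). The corresponding values were -1.90 against Pik3c3 and -1.46 against Ambra1, each without overlap and each with the same exact p of 0.0286, the smallest possible, and adjusted p of 0.0357. The Atg13 probe met the filter through its KO samples alone, with all WT samples at the floor. Against Atg13 the measured value was -2.52 (same exact p), which is therefore a bound on the size of the difference. Against Becn1 it was -0.23, with overlapping groups (exact permutation p = 0.657, adjusted p = 0.657). A p of this size does not show that Ulk1 and Becn1 changed alike. At the probes compared, A11 was the highest KO sample for Becn1 and A8 for Ulk1. The other tested Becn1 probe ranked the KO samples differently, with A4 highest, so no sample order can be given for Becn1 as a gene. Without A8 the 5 values were -1.81 for Atg101, -1.88 for Pik3c3, -1.63 for Ambra1, -2.32 (again a bound) for Atg13 and -0.46 for Becn1.

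**Figure D3:**
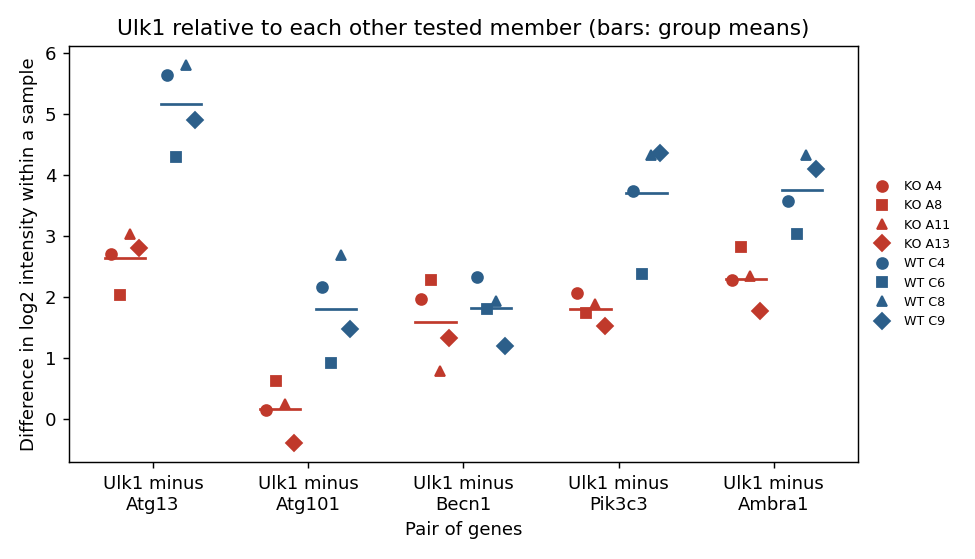
For each sample, log2 intensity of Ulk1 minus that of each other tested initiation gene, KO in red and WT in blue, with a bar at the group mean; the height of a pair depends on how bright its probes are, so only the distance between the groups is informative. KO lies below WT without overlap for Atg13, Atg101, Pik3c3 and Ambra1, and the groups overlap for Becn1.

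The profile of Ulk1 across the 8 samples was compared with those of 4917 genes above the floor on all arrays, by the root mean square difference of log2 intensity after each gene was centred on its own mean. Fam214b was nearest, at 0.15, followed by Bsdc1 (0.19), the proteasome activator gene Psme3 (0.21), the ubiquitin ligase adaptor gene Klhl25 (0.21) and Vopp1 (0.23). Fam214b had intensities of 401.7, 560.9, 291.4 and 238.5 in KO and 1530.5, 634.1, 1930.5 and 892.2 in WT, the same sample order as Ulk1. All 5 were lower in KO with groups that did not overlap and adjusted p-values from 0.0111 to 0.0429 in limma, which likeness to Ulk1 over the same 8 samples brings with it. Sh3glb1 ranked 17 in likeness (0.32), Tsc1 71 (0.45) and Becn1 143 (0.51). Ambra1 ranked 1224, Atg101 2216 and Pik3c3 3273.

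**Figure D4:**
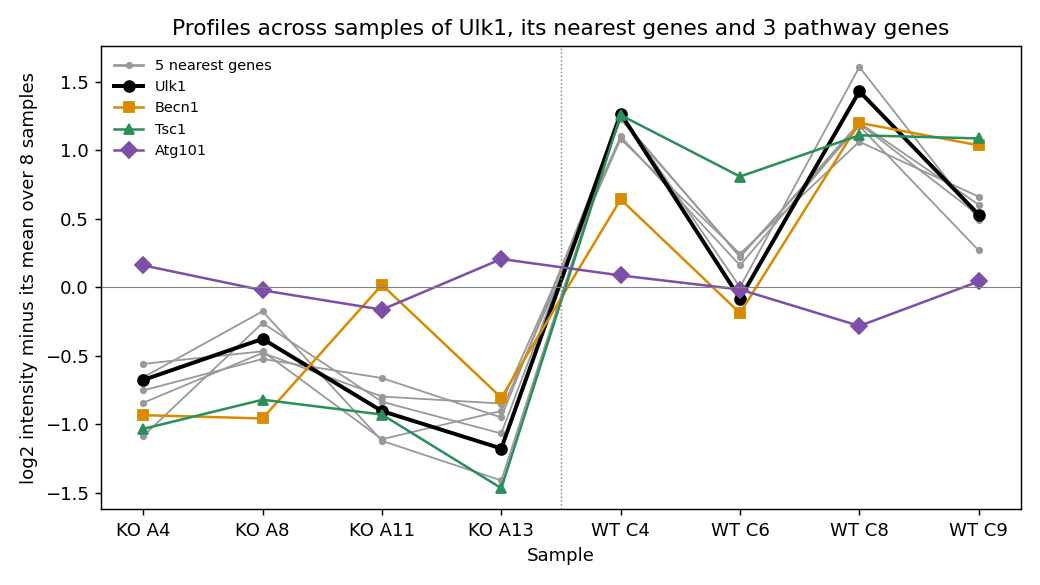
Log2 intensity in each sample minus the mean over the 8 samples, for Ulk1 (black), its 5 nearest genes (grey), Becn1, Tsc1 and Atg101. The 5 nearest genes lie lower in KO and have their lowest WT value in sample C6, as Ulk1 does. Fam214b alone of them keeps the full sample order of Ulk1. Atg101 stays close to its own mean in every sample.

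Upstream of the ULK complex, mTORC1 inhibits the kinase, AMPK activates it, and the TSC complex restrains mTORC1 through Rheb. Of 17 genes of this group 12 were tested, 1 fell and none rose, against a background of 3.25% lower and 2.4% higher, and the median log2 fold change was 0.25 against 0.11 over all genes. At an unadjusted p under 0.05 in limma 2 were higher and 2 lower, beside 15.3% and 9.92% of all genes. The gene that fell was Tsc1, which encodes hamartin of the TSC complex. Its probe (ILMN_1225372) gave 35.97, 41.69, 38.68 and 26.65 in KO and 175.9, 128.9, 158.8 and 156.3 in WT, far apart and with little spread within a group. The fall was 4.37-fold (-2.13 on the log2 scale, SE 0.20, limma adjusted p = 0.00122) and passed with any 1 sample left out (-2.21 to -1.99). This probe is annotated to a cDNA record, not to a RefSeq transcript, and the 3 other Tsc1 probes were at the floor on all arrays. The other members of the complex, named after their values were seen, lay on the opposite side and did not pass. Tsc2 had a log2 fold change of 0.57 with KO above WT (adjusted p = 0.108 in limma), and Tbc1d7 0.84 with overlap (adjusted p = 0.101).

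The other named regulators did not pass. Mtor, the kinase of mTORC1, had a log2 fold change of -0.02 (95% interval -0.60 to 0.56, adjusted p = 0.971 in limma). Prkaa1, a catalytic subunit of AMPK, had 20, 21.11, 31.08 and 20 in KO and 53.99, 21.42, 37.97 and 70.22 in WT, with overlap and a log2 fold change of -0.89 (adjusted p = 0.164). The genes for its catalytic relative Prkaa2 and for Prkab2, Prkag2 and Prkag3 were at the floor at every probe. Rptor, the mTORC1 subunit that binds substrates, was singled out after its values were seen, because its 2 tested probes disagreed. The brighter (ILMN_1250017) had a log2 fold change of 0.35 (adjusted p = 0.294), and the dimmer (ILMN_1220256), annotated to a cDNA record, had -1.07 (adjusted p = 0.0489), with A4 and A8 at the floor. The call of the dimmer probe was lost without any single sample other than C6 (adjusted p 0.0553 to 0.124).

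The partners that bind Beclin 1, VPS34 or ULK-type kinases numbered 13, of which 10 were tested, 2 fell and none rose, with a median log2 fold change of -0.22 and 9 of 10 below 0. Over all tested genes 3.25% fell and 2993 of 7178 lay below 0. At an unadjusted p under 0.05 in limma 1 was higher and 2 lower, beside 15.3% and 9.92% of all genes. Sh3glb1 encodes Bif-1, an endophilin that joins Beclin 1 through UVRAG. It was 811.2, 864.3, 1054.7 and 796.8 in KO and 3677.6, 1925.3, 3107.6 and 2468.1 in WT, a 3.1-fold fall without overlap (log2 fold change -1.63, SE 0.23, adjusted p = 0.00574) that passed with any 1 sample left out.

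Bcl2l1 encodes Bcl-xL, a survival protein that also binds and restrains Beclin 1. Its brightest probe (ILMN_2698430) gave 219.4, 20, 172.1 and 171.4 in KO and 1686.1, 678.3, 1302.7 and 1026.1 in WT. KO sample A8 was at the floor, and the other 3 were well below all WT samples. The log2 fold change was -3.38 (SE 0.71, limma adjusted p = 0.0295), or -2.58 (adjusted p = 0.00451) without A8. The call was lost without A11, A13, C4, C8 or C9 (adjusted p 0.0536 to 0.0922), and the 2 other tested probes of the gene did not pass (adjusted p = 0.216 and 0.278). At both of these probes KO sample A8 and WT sample C8 were at the floor. They passed without C8 (log2 fold changes -2.64 and -2.18, adjusted p = 0.0129 and 0.0252 in limma) and with no other sample left out. Bcl2l1 is also 1 of the late erythroid genes above.

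Traf6, a ubiquitin ligase that acts on Beclin 1 and ULK1, was named after its values were seen, as the partner furthest on the opposite side. It was higher in KO without overlap at both tested probes and did not pass, with a log2 fold change of 1.23 (adjusted p = 0.0617 in limma) at the brighter, and at least 1.87-fold (adjusted p = 0.0939) at the dimmer, where all WT samples were at the floor. The dimmer probe met the filter through its KO samples alone, which fixed its lack of overlap.

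The remaining named partners did not pass and had overlapping groups. Uvrag, which replaces ATG14 in the endosomal form of the lipid kinase complex, had a log2 fold change of -0.10 (95% interval -0.71 to 0.52, adjusted p = 0.845 in limma). Rubcn, an inhibitor of that form, had -0.64 with samples of both groups at the floor (adjusted p = 0.412). Nrbf2, a subunit of the ATG14-bound form, had 0.00 (-0.57 to 0.57, adjusted p = 0.998), and Ulk3, a more distant kinase of the family, -0.09 (-0.95 to 0.77, adjusted p = 0.903). Vmp1, a membrane protein of the endoplasmic reticulum, had -0.10 at its brighter probe (-0.54 to 0.34, adjusted p = 0.778).

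Downstream, the 10 genes for ATG9, ATG2 and the proteins that bind PI3P gave 8 tested, of which none passed in limma, beside 5.64% of all genes. At an unadjusted p under 0.05 in limma 2 were lower and 0 higher, beside 9.92% and 15.3% of all genes. Wdr45, a PI3P-binding partner of ATG2, had the smallest p, with 73.63, 96.26, 79.1 and 89.31 in KO and 103.7, 121.5, 156.8 and 128.1 in WT. Its groups did not overlap, and its log2 fold change was -0.58 (adjusted p = 0.108). Atg2a, which carries lipid to the membrane, had -0.62 (adjusted p = 0.183), Atg9a, which supplies vesicles, -0.66 (adjusted p = 0.342), and Wipi1, another PI3P-binding protein, -0.16 (adjusted p = 0.572).

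Of 11 genes that remove or further modify PI3P, 5 were tested and none passed in limma, beside 5.64% of all genes. At an unadjusted p under 0.05 in limma 2 were lower and 0 higher, beside 9.92% and 15.3% of all genes. Mtmr4, a PI3P phosphatase, had 20, 28.96, 25.34 and 29.12 in KO and 63.06, 27.01, 77.67 and 53.97 in WT (log2 fold change -1.02, adjusted p = 0.0989). Its relative Mtmr3 was lower in KO without overlap at both tested probes, with log2 fold changes of -0.49 (adjusted p = 0.143) and -0.80 (adjusted p = 0.0616).

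Of 16 genes for the ATG8 proteins and the enzymes that attach them to the membrane, 14 were tested, 2 fell and none rose, beside 3.25% and 2.4% of all genes. At an unadjusted p under 0.05 in limma 2 were lower and 0 higher, beside 9.92% and 15.3% of all genes. Atg12, whose product is joined to ATG5 in the conjugation machinery, fell 2.15-fold (log2 fold change -1.11, adjusted p = 0.0129), a call lost without A13 (adjusted p = 0.051). Gabarapl2, an ATG8 protein, fell 2.12-fold with A4 and A13 at the floor (log2 fold change -1.08, adjusted p = 0.0454), a call lost without any single sample other than C6 (adjusted p up to 0.124). The 2 other Gabarapl2 probes were at the floor on all arrays. Atg16l1, a partner of ATG12 and ATG5, was singled out after its values were seen, because its probes disagreed. The brighter (ILMN_2620574) had a log2 fold change of -0.02 (adjusted p = 0.974). The dimmer (ILMN_1229870), annotated to a cDNA record, was at the floor in all KO samples and at 29.89 to 104.5 in WT, at least 3.14-fold lower (adjusted p = 0.0319), a call lost without any single sample other than C6 (adjusted p up to 0.0895). The dimmer probe met the filter through its WT samples alone, so its separation was fixed by the filter.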

How the data were processed

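The deposited table holds normalized probe intensities on a linear scale, and the submitters' processing notes name BeadStudio 3.1.3 as the authors' software. How background and normalization were set is not given in the sources used here. These values show a floor of 20, and at 4959 of the 5000 highest ranks the arrays were equal within 0.1 percent. A second deposited table gives the authors' signed fold, which equals the ratio of geometric means for all 45281 probes (tolerance 0.0001), and a p-value, which equals an unequal-variance test of log2 intensities for all 18468 probes that have one (tolerance 0.001). A table of signals before normalization was not used, because its 8 signal columns match no sample label.

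Probes were named from the array annotation (34885 with 1 gene, 18 with several, 10378 with none), and 34807 were matched by Entrez identifier to RefSeq. Probes above the floor on at least 4 of 8 arrays, 12259 in all, were tested on log2 intensity with lmFit and eBayes in limma 3.58.1 (R 4.3.3), without covariates, and p-values were adjusted by Benjamini-Hochberg over all of them (threshold 0.05). The fit was tested on simulated data with normal noise and no floor. There 22% of 100 probes with a true log2 change of 1 were recovered, and 87% of 100 with a change of 2, with 8 false calls. A failure to pass therefore does not show that a change near 1 is absent. A gene is represented by its tested probe of highest mean, and initiation genes are given at every probe. Differences between 2 genes were tested by exact permutation (Python 3.11.15, numpy 2.4.6), and the check of the authors' p-values used SciPy 1.17.1. The number of arrays limits the precision.

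The gene lists and the 10 genes were chosen with earlier results of these data known. Besides the initiation genes and Trim28, the genes named by rule were 11 partners and regulators whatever their result (Bcl2l1, Sh3glb1, Uvrag, Rubcn, Nrbf2, Mtor, Prkaa1, Ulk3, Atg9a, Wipi1 and Vmp1), the genes past the threshold in each pathway list (up to 4, or the 2 of smallest p where none passed) and the 5 profiles nearest to Ulk1. Tsc2, Tbc1d7, Rptor, Traf6 and Atg16l1 were named outside this rule, after their values were seen. Cell type markers and further late erythroid genes were named from their lists. Alternatives were no filter, a filter on all 8 arrays, an offset of 50 before log2, trend and robust eBayes, array weights, an unequal-variance test, the other probe, and leaving out each sample.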

Additional observations from a re-analysis of the deposited data

Results flagged for a closer look

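Samples far from the rest of their group were looked for at each tested probe of the initiation genes, in 17 groups of 4 samples. The measure was the gap to the nearest sample divided by the range of the group, both in log2 intensity. Dixon's 95% critical value for 4 samples, which chance passes in about 1 in 20 groups, was passed in 2 groups. At the brighter Becn1 probe KO sample A11, at 129.6, stood above the other 3 KO samples (65.92 to 73.23), with a ratio of 0.845. At the Pik3c3 probe KO sample A8, at 95.86, stood above the others (60.6 to 63.86), with a ratio of 0.886.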

How the results depend on the processing

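Floor values bound the level of Ulk2, Atg13, Rb1cc1 and Pik3r4, and 4 samples a group limit every test. Over all probes, 301 were called higher and 381 lower in limma. These counts were 74 and 78 without the filter, 171 and 321 with the filter on all 8 arrays, 836 and 702 with array weights, 94 and 114 with the unequal-variance test, and ranged from 91 to 557 and from 162 to 586 when 1 sample was left out. Among the initiation genes 1 was lower. This count was 0 without the filter and with the unequal-variance test, and 2 with the filter on all 8 arrays, with trend and robust eBayes and with array weights, and it ranged from 0 to 2 with 1 sample left out, where the second gene was Becn1. The Ulk1 log2 fold change of -1.57 was not called without the filter (adjusted p = 0.282 in limma) or with the unequal-variance test (-1.57, adjusted p = 0.15), was -1.52 at the other probe (adjusted p = 0.0642 in limma), and lay between -1.86 and -1.35 with 1 sample left out. Ambra1, uncalled, changed sign with array weights (0.0199) and between -0.31 and 0.12 with 1 sample left out. Ulk1 minus Atg101, Pik3c3, Ambra1 and Atg13 remained negative with the offset before log2 and with 1 sample left out. No other alternative was run for these differences, and those with 1 sample left out were not tested. Ulk1 was chosen because it fell, and the Atg13 probe met the filter through its KO samples alone. The unchanged signs are therefore no independent support. The cause of the changes between settings was not tested. No paired analysis was possible because the labels give sample codes and no replicate numbers, and only the codes ending in 4 and 8 occur in both groups without any stated pairing.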
